A study of Homo sapiens with 2 samples.

Results

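The mature products of the miR-193 and miR-365 hairpins were examined in FadU cells, a squamous carcinoma line of the hypopharynx usually written FaDu. The members are 5 of the 2038 miRNA names in each deposited table: both arms of miR-193a, both arms of miR-193b, and miR-365a-3p. They were taken by name, after removal of the species prefix and without regard to case. Sphere cells were grown in a tumor sphere medium of DMEM-F12, to which N2 Plus Supplement was added along with EGF and bFGF at 10 ng/ml each. Parental cells were grown in RPMI-1640 with 10% FBS. Both media held penicillin and streptomycin. Each group is 1 small RNA library of 1 cell line, so no value has a replicate check and no test between conditions was possible. Basal medium, serum, growth factors and growth form changed together with the group and cannot be told apart.

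miRNAs are cut from hairpins, and either arm, named 5p or 3p, can be loaded into Argonaute proteins. Bases 2 to 8 of the mature strand, the seed, choose most of the mRNAs that are repressed. miR-193 and miR-365 hairpins lie side by side in a pair of paralogous clusters on chromosomes 16 and 17. Products of both clusters are known as repressors of growth in several carcinomas: miR-193b and miR-365 repress cyclin D1, and miR-193b also represses the urokinase PLAU. In squamous carcinoma lines, miR-193a-5p is known as a regulator of the p53 relative TP73 and is itself repressed by TP63. In mouse, the miR-193b and miR-365 cluster is known for its high expression in brown fat.

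The mature sequences are shown from 5′ to 3′ with the seed in capitals, because they decide which names can be told apart. They come from RefSeq (GRCh38.p14), in which all 5 members were found. The deposited tables hold names and no coordinates.
miR-193a-3p: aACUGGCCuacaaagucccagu
miR-193b-3p: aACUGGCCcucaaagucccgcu
miR-193a-5p: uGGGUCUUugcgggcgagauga
miR-193b-5p: cGGGGUUUugagggcgagauga
miR-365a-3p: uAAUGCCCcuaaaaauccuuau
miR-365b-3p: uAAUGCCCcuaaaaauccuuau
miR-365a-5p: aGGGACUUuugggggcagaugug
miR-365b-5p: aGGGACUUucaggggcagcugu

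miR-193a-3p and miR-193b-3p share their seed and, of the names matched to a sequence, no other had it. Counted from 1 at the 5′ end of miR-193a-3p, they differ at 4 of 22 bases (U9C, A10U, A20G and G21C), so they form 1 seed family of distinct sequences. The 5p arms also differ at 4 of 22 bases (U1C, U5G, C6U and C11A), and of these U5G and C6U fall in the seed, so that miR-193a-5p and miR-193b-5p do not share a seed. miR-365a-3p and miR-365b-3p are identical over all 22 bases. A read of miR-365 3p therefore cannot be given to either chromosome. The 5p arms of miR-365a and miR-365b share a seed but differ beyond it. By base composition the 3p arms are unlike, with 31.8% G and C in miR-365a-3p, 50% in miR-193a-3p and 59.1% in miR-193b-3p.

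The hairpins are printed with both mature arms in capitals, to show the arms that the values below refer to.
MIR193B: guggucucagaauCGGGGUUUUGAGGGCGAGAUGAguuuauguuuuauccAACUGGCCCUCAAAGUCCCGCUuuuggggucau
MIR365A: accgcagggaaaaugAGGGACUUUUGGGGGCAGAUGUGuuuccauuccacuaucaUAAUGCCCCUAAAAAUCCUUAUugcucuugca
MIR193A: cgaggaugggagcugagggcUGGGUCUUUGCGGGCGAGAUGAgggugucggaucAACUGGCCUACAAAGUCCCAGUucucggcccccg
MIR365B: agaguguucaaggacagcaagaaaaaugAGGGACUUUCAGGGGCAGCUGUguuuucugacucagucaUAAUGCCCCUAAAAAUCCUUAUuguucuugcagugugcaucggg

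All 4 hairpins are on the plus strand of GRCh38.p14. MIR193B lies at chr16:14303967-14304049 and MIR365A at chr16:14309285-14309371, with 5235 bases between them. Both lie inside the long non-coding gene MIR193BHG, and none of the 4 GENCODE v29 transcripts of that gene that span each hairpin has an exon there, so both are intronic. MIR193A lies at chr17:31559996-31560083 and MIR365B at chr17:31575411-31575521, with 15327 bases between them. MIR365B lies in the RefSeq gene MIR365BHG, and the 1 GENCODE v29 transcript over it, of gene AC003101.1, has an exon there. No other annotated gene overlapped MIR193A in either annotation.

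**Figure D1:**
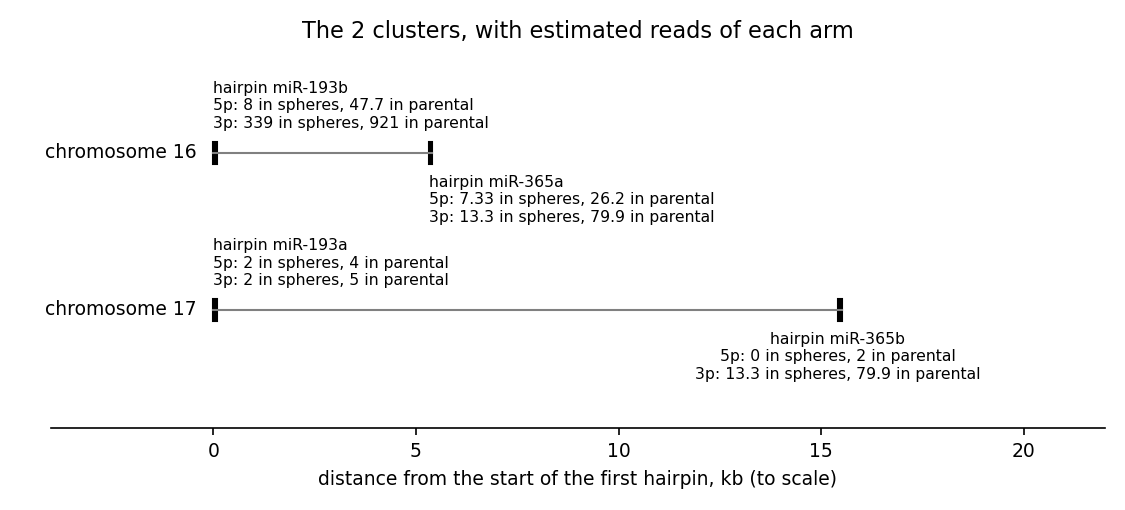
Map of the clusters on chromosomes 16 and 17, with the distance from the start of the first hairpin in kb on the horizontal axis and hairpins as black bars. The numbers are estimated reads of each arm in spheres and in parental cells. miR-193b-3p, with 339 and 921, stands far above every other arm, and the 3p values of both miR-365 hairpins are the same.

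Each table gives 1 RPKM value per name (reads per kilobase and 1000000 reads, as the authors computed it). RPKM summed to 5509071 in spheres and 26530004 in parental cells. Levels are therefore given as deposited and as "rescaled RPKM", with each library set to sum to 1000000 over all names. The commonest low value was taken as 1 read on 22 nt, which puts an estimated 683675 miRNA reads in spheres and 4550662 in parental cells. A read is then worth 1.47 rescaled RPKM in spheres and 0.22 in parental cells. Intervals are 95% counting intervals on estimated reads. They set 1 library against another, not one condition against another. Without molecular identifiers PCR copies are not independent molecules, so the intervals hold counting error alone. A name is called measured where its 2 rescaled values average 10 or more, as 269 names did, and higher or lower at a fold of at least 2. Fewer cells with a miRNA and less of it per cell cannot be told apart in such bulk RNA.

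All 5 members were above 0 in both libraries, and 3 of them were measured: miR-193b-3p, miR-193b-5p and miR-365a-3p. Of these 3, 1 was at least 2-fold higher in spheres and 0 were at least 2-fold lower. Among all 269 measured miRNAs, 23.0% were higher and 19.0% were lower, so a single higher name of 3 is near that background. On the deposited scale 0 of the 3 were higher and 2 were lower, against 6.32% and 79.6% of all measured miRNAs. The median log2 fold of the 3 was 0.15, against 0.02 for all measured miRNAs, and -2.10 against -2.25 as deposited. The results are thus those of single miRNAs and of the differences among them.

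miR-193b-3p, the strand that represses cyclin D1 and PLAU, was the most abundant member in both libraries. It had 2740 RPKM in spheres and 5378 RPKM in parental cells as deposited. After rescaling these were 497 rescaled RPKM in spheres and 203 in parental cells. It ranked 78 of all names in spheres and 101 in parental cells. As a share of the miRNA signal it was 2.45-fold higher in spheres (95% interval 2.16 to 2.78, on 339 and 921 estimated reads), and its log2 fold, with a pseudocount of 0.5, was 1.29. Of the 269 measured miRNAs, 52 had a larger log2 fold. Per read behind the authors' RPKM the direction was opposite: the log2 fold as deposited was -0.97, or 1.96 times lower in spheres. The call also ended at a log2 fold of 0.90 when the total was taken without the 10 most abundant miRNAs. By the same estimate, miRNAs were 12.1% of the reads behind the authors' RPKM in spheres and 58.5% in parental cells. miR-193b-3p thus took a larger part of a smaller miRNA fraction of the reads in spheres. Whether sphere cells held less miRNA was not tested.

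miR-193b-5p, the other strand of the same hairpin, did not show that difference. It had 64.6 RPKM in spheres and 279 RPKM in parental cells as deposited, which are 11.7 rescaled RPKM in spheres and 10.5 in parental cells. Its fold was 1.12 (0.46 to 2.38), on 8 and 47.7 estimated reads, and its log2 fold 0.15. With 8 sphere reads, the interval still allows a fold above 2. As deposited it was 4.32 times lower in spheres.

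miR-365a-3p, which is cut from the same primary transcript as miR-193b or from the copy on chromosome 17, resembled miR-193b-5p and not miR-193b-3p. It had 108 RPKM in spheres and 466 RPKM in parental cells, or 19.5 rescaled RPKM in spheres and 17.6 in parental cells. Its fold was 1.11 (0.57 to 2.0), on 13.3 and 79.9 estimated reads, and its log2 fold was 0.15. As deposited it was 4.33 times lower in spheres. The signs of the small log2 folds of miR-193b-5p and miR-365a-3p are not firm, since they turned negative, to -0.06 and -0.07, when scaled to the upper quartile of the measured miRNAs, and to -0.23 and -0.24 without the 10 most abundant in the total.

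miR-365b-3p carried the same value as miR-365a-3p in each table. In all, 4 sets of names with 1 common mature sequence had a value above 0, and in 3 of them the names carried equal values within a relative tolerance of 0.0001. The exception was the pair miR-199a-3p and miR-199b-3p. Whether each miR-365 name holds all the reads of the shared sequence or only its part is not given in the sources used here. The level of miR-365 3p is thus uncertain by the number of its copies, while its fold is not affected. Both names together had 39.1 rescaled RPKM in spheres and 35.2 in parental cells.

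**Figure D2:**
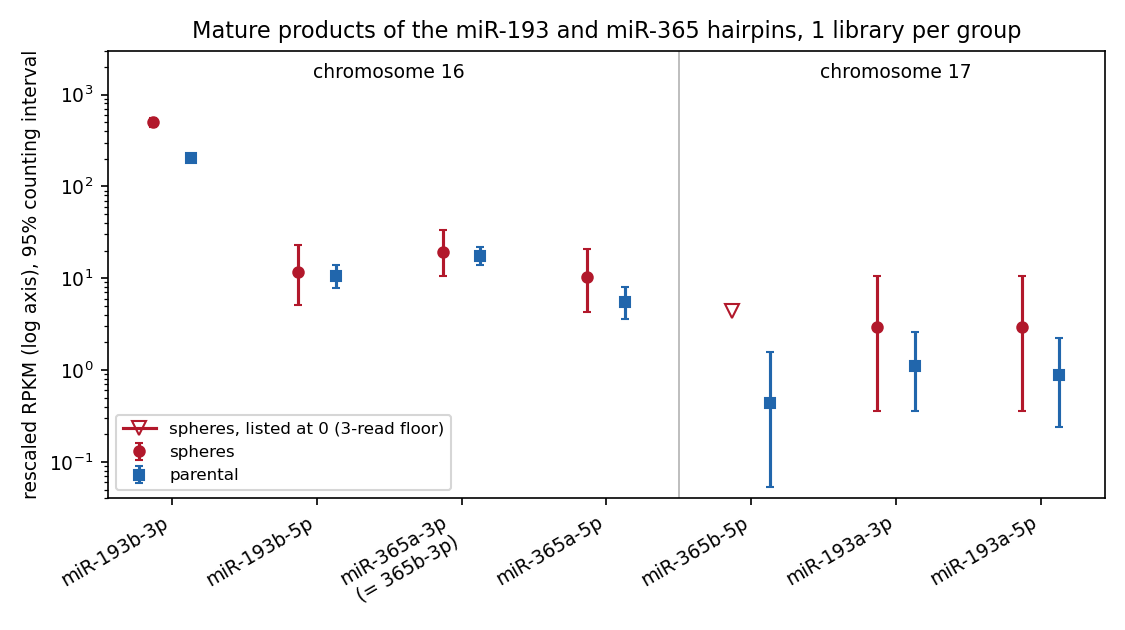
Level of each mature product as rescaled RPKM on a log axis, spheres as red circles and parental cells as blue squares, 1 library each, with 95% counting intervals. miR-365a-3p, which equals miR-365b-3p, is drawn once under chromosome 16 although it can come from both. Only the intervals of miR-193b-3p lie apart, 446 to 553 in spheres and 190 to 216 in parental cells, and the open triangle marks the 3-read floor of miR-365b-5p, listed at 0 in spheres.

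Both arms of miR-193a, the copy on chromosome 17, were near the floor. miR-193a-3p had 16.1 RPKM in spheres and 29.2 RPKM in parental cells as deposited, on 2 and 5 estimated reads. miR-193a-5p, the strand linked to TP73, had 16.1 RPKM in spheres and 23.4 RPKM in parental cells, on 2 and 4 estimated reads. A count of 3 reads, the limit that a value of 0 allows, is 4.40 rescaled RPKM in spheres and 0.66 in parental cells, and both arms were at 2.93 rescaled RPKM in spheres. The ratio of spheres to parental cells was 2.66 (0.25 to 16.3) for miR-193a-3p and 3.33 (0.30 to 23.2) for miR-193a-5p. These intervals span 1 widely, so a difference in either direction was not detectable at this depth.

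The paralogous clusters could be set against each other by the products that differ in sequence. Among the 3p arms of miR-193, the copy on chromosome 17 gave 0.59% of the estimated reads in spheres (Clopper-Pearson interval 0.071% to 2.10%). In parental cells it gave 0.54% (0.18% to 1.26%). miR-193b-3p was thus 170 times as abundant as miR-193a-3p in spheres and 184 times in parental cells. The log2 fold of miR-193b-3p exceeded that of miR-193a-3p by 0.19 with an interval of -1.97 to 2.36, so a difference between the paralogs was not detectable. Since both carry the seed ACUGGCC, the level of that seed is almost wholly set by miR-193b-3p: it summed to 500.2 rescaled RPKM in spheres and 204 in parental cells.

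The 5p arms gave the same order of the copies with wider error. miR-193a-5p made up 20% of the miR-193 5p reads in spheres (2.52% to 55.6%) and 7.73% in parental cells (2.15% to 18.6%). These intervals lie wholly above those of the miR-193 3p arms, at 0.071% to 2.10% in spheres and 0.18% to 1.26% in parental cells. The 3p and 5p arms of miR-193 thus gave unlike shares of the copies. miR-365a-5p, from chromosome 16, had 56.6 RPKM in spheres and 146 RPKM in parental cells, on 7.33 and 26.2 estimated reads. miR-365b-5p, from chromosome 17, was listed at 0 in spheres and had 11.7 RPKM in parental cells, on 2 estimated reads. At the depth of the 5p arms of miR-365 in spheres, a value of 0 allows a share of up to 40.9% for the copy on chromosome 17, taking 3 of 7.33 reads. The Clopper-Pearson interval reaches 39.5%. Over the 3 distinct pairs together, chromosome 17 gave 1.12% of the estimated reads in spheres (0.30% to 2.83%) and 1.09% in parental cells (0.55% to 1.95%). These sums rest mostly on the 3p arms of miR-193 and leave out miR-365 3p, so they do not give the division of the whole clusters. Their intervals hold counting error alone and not the spread between the pairs.

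The proportion of miR-193b-3p to miR-365 3p, whose reads may come from either cluster, differed between the libraries. miR-193b-3p had 25.5 times the reads listed for miR-365a-3p in spheres (14.8 to 47.9) and 11.5 times in parental cells (9.17 to 14.7). Against the sum of both miR-365 names, which applies if the shared reads were split between them, these were 12.7 times in spheres and 5.76 times in parental cells. Expressed as log2 folds, miR-193b-3p exceeded miR-365a-3p by 1.14, with an interval of 0.30 to 1.99. This difference does not depend on how the libraries are scaled to each other, apart from the pseudocount, because both names come from the same pair of libraries. The opposite arm, miR-365a-5p, with a mean of 7.89 rescaled RPKM below the level counted as measured, had a ratio of 1.87 (0.70 to 4.35). The log2 fold of miR-365a-3p minus that of miR-365a-5p was -0.70, with an interval of -2.11 to 0.72. A difference between the arms of miR-365a was thus not detectable. The 3p to 5p ratio of miR-365a was 1.82 in spheres (0.69 to 5.24) and 3.05 in parental cells (1.94 to 4.94), intervals that overlap.

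The proportion of the arms of miR-193b also differed between the libraries. In spheres there were 42.4 reads of miR-193b-3p for each read of miR-193b-5p (21.3 to 99.0), against 19.3 in parental cells (14.4 to 26.4). The log2 ratio of 3p over 5p was 5.35 in spheres and 4.21 in parental cells, a difference of 1.14 with an interval of 0.07 to 2.21. This interval is wide because it rests on 8 sphere reads of miR-193b-5p. The arms of miR-193a, with a 3p to 5p ratio of 1 in spheres and 1.25 in parental cells, were too few to compare between the libraries. Where miR-193b was strongly 3p-dominant, dominance of either arm of miR-193a was not detectable at this depth. The intervals of the miR-193a ratio, 0.072 to 13.8 in spheres and 0.27 to 6.30 in parental cells, still lie below those of miR-193b in each library.

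A larger ratio of the major to the minor arm in spheres was common among other hairpins. Of 559 hairpins with both arms named, 50 had both arms measured, and in 45 of these the same arm was the more abundant in both libraries. The log2 ratio of that arm over the other was higher in spheres for 33 of the 45 and lower for 12, with a median difference of 0.54 and a range of -1.53 to 2.88. Among the 45, 11 hairpins had a larger difference than miR-193b. The other 5 of the 50 changed their more abundant arm between the libraries and are not ranked. The change in arm balance is thus not particular to miR-193b. The libraries differ in depth, and its part in these ratios was not tested.

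**Figure D3:**
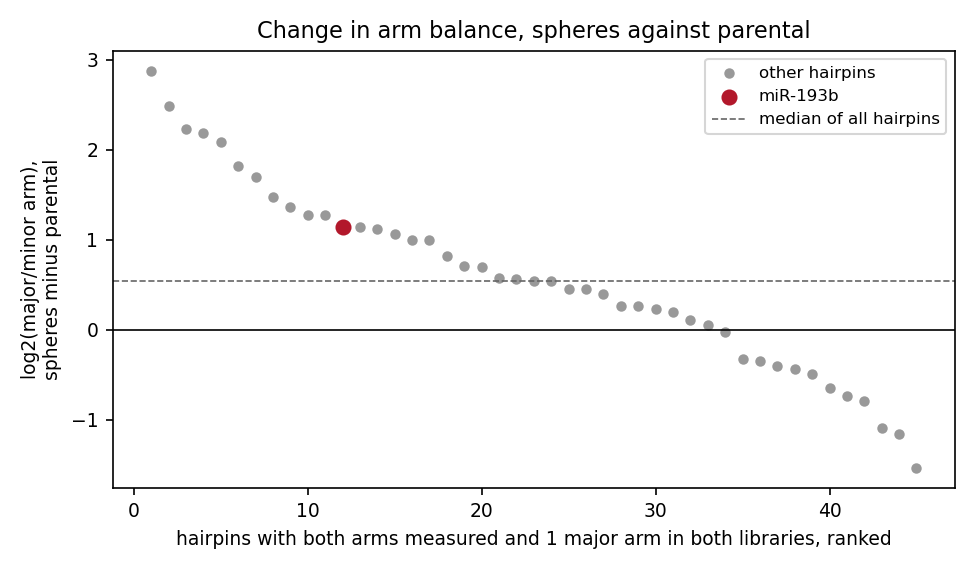
Difference between spheres and parental cells in the log2 ratio of major over minor arm, for 45 hairpins with both arms measured and the same major arm in both libraries, ranked from high to low. miR-193b, the red point at 1.14, lies above the dashed median of 0.54 with 11 hairpins above it.

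The 5 members together made up 0.053% of the miRNA signal in spheres (0.048% to 0.059%) and 0.023% in parental cells (0.022% to 0.025%). miR-193b-3p alone took 93.1% of their summed RPKM in spheres and 87.1% in parental cells. The share of miR-365a-3p among the members was 3.65% in spheres and 7.55% in parental cells, and that of miR-193b-5p was 2.19% in spheres and 4.51% in parental cells. In both libraries the order of the measured members was miR-193b-3p, miR-365a-3p and miR-193b-5p. The intervals of the last pair overlapped in spheres, at 10.5 to 33.2 rescaled RPKM for miR-365a-3p and 5.06 to 23.1 for miR-193b-5p. In parental cells they lay between 13.9 and 21.9 for miR-365a-3p and 7.74 and 13.9 for miR-193b-5p, so that they met only at their ends.

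**Figure D4:**
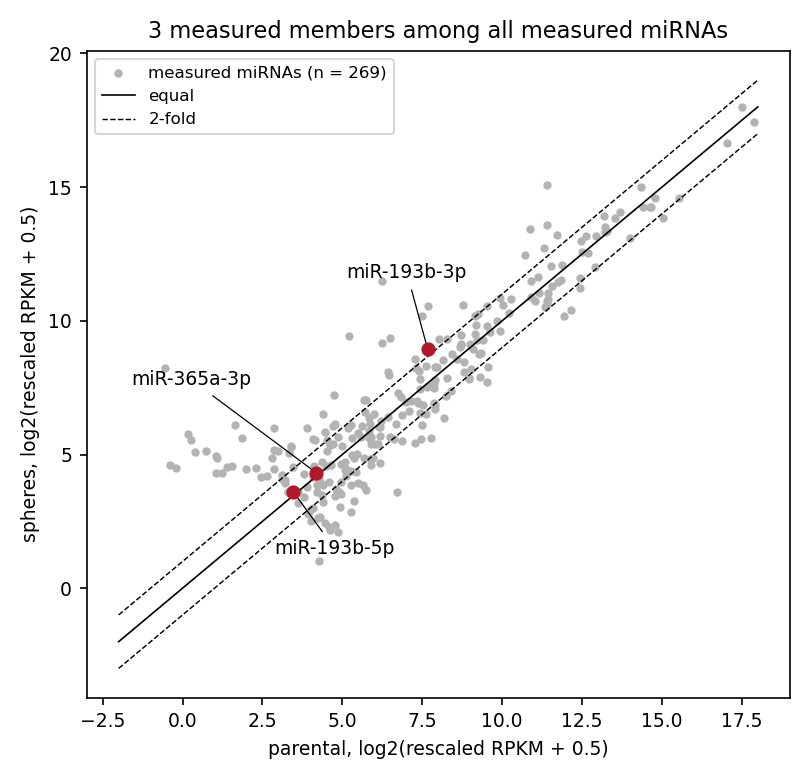
Level in parental cells (horizontal) and in spheres (vertical), each as log2 of rescaled RPKM plus 0.5, for the 269 measured miRNAs in grey and the 3 measured members in red. miR-193b-3p lies above the dashed 2-fold line, while miR-193b-5p and miR-365a-3p lie on the line of equal levels.

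The measured miRNAs closest in level to each member, by distance over the 2 libraries on the log2 scale, were looked up. For miR-193b-3p they were miR-5701, with 631 rescaled RPKM in spheres and 259 in parental cells, and miR-126-5p, with 376 in spheres and 154 in parental cells. For miR-193b-5p they were miR-342-5p, with 12.3 rescaled RPKM in spheres and 10.1 in parental cells, and let-7e-3p, with 11.7 in spheres and 11.2 in parental cells. For miR-365a-3p they were its identical copy miR-365b-3p and miR-331-5p, with 17.6 rescaled RPKM in spheres and 16.5 in parental cells. Likeness over so few libraries says only that the levels are alike.

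Of 13 other miRNAs known to repress cyclin D1, 11 were measured, of which 2 were higher and 0 lower, beside 23.0% and 19.0% of all measured miRNAs. As deposited 0 were higher and 9 lower, beside 6.32% and 79.6% of all, which is near that background. Their median log2 fold was -0.13, against 0.02 for all measured miRNAs. The highest were miR-34a-5p, a target of p53, at 2.51 and miR-195-5p, of the miR-15 and miR-16 family, at 1.50. The lowest were miR-424-5p at -0.81 and miR-15b-5p at -0.37, both of that family too.

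Of 10 miRNAs tied to the p53 family in squamous epithelium, the network in which miR-193a-5p is known, 8 were measured. After rescaling 4 were higher and 0 lower, beside 23.0% and 19.0% of all measured miRNAs, and as deposited 1 was higher and 4 lower, beside 6.32% and 79.6%. Their median log2 fold was 1.42, against 0.02 for all measured miRNAs. The highest were miR-203a, abundant in differentiating epidermis, at 3.70 and miR-200a-3p, which represses the ZEB factors, at 2.57. The lowest were miR-200b-3p at -0.30 and miR-205-5p, a TP63-linked miRNA of basal epithelium, at -0.17. miR-193a-5p itself was below the level counted as measured.

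As markers of a squamous line, 5 epithelial miRNAs (miR-205-5p, miR-203a, miR-200c-3p, miR-141-3p and miR-31-5p) were looked up. All were measured, and they summed to 83300 rescaled RPKM in spheres and 37310 in parental cells. After rescaling 2 were higher and 0 lower, beside 23.0% and 19.0% of all measured miRNAs. As deposited 1 was higher and 3 lower, beside 6.32% and 79.6%. miR-203a had 35057 in spheres and 2698 in parental cells, while miR-205-5p had 19458 in spheres and 21938 in parental cells. Of 27 names that mark blood, endothelial, mesenchymal, muscle, liver or neural cells, 26 were listed and 7 measured, with sums of 3935 rescaled RPKM in spheres and 4663 in parental cells. Of the 26, 7 were at 0 in spheres and 10 in parental cells, among them miR-122-5p of liver and miR-124-3p of neurons in both. Parental cells had more names at 0 although that library was the deeper, with an estimated 4550662 miRNA reads against 683675. The neural list as a whole was not at 0, with 2 of its 5 names measured. It summed to 663 rescaled RPKM in spheres and 671 in parental cells. miR-9-5p had 429 in spheres and 348 in parental cells, and miR-128 had 229 in spheres and 312 in parental cells. The 2 endothelial names, both measured and none at 0, differed in the direction of miR-193b-3p, at 445 rescaled RPKM in spheres and 192 in parental cells. Of the mesenchymal names, with 2 at 0 in parental cells and none in spheres, miR-143-3p differed in that direction too, at 66.3 rescaled RPKM in spheres and 25.9 in parental cells, while the list summed to 2569 in spheres and 3053 in parental cells through miR-10b-5p. Among the 7 blood names, miR-150-5p had 13.2 rescaled RPKM in spheres, on 9 estimated reads, and was listed at 0 in parental cells. Also larger in spheres, on few reads, were miR-142-5p (12.3 against 3.25), miR-451a (5.86 against 0.44) and miR-142-3p (2.80 against 0). miR-223-3p was at 0 in spheres and 0.08 in parental cells, and miR-144-3p at 0 in both. The list summed to 241 in spheres and 745 in parental cells through miR-486-5p, its only measured name. The muscle names, none measured, had 17.9 rescaled RPKM in spheres and 2.05 in parental cells, with miR-206 and miR-208b at 0 in both. Their part in the values of miR-193b-3p was not tested.

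The setting of the scale decided the direction of the difference for miR-193b-3p. RPKM summed to 4.82 times less in spheres, which moves every log2 fold by -2.27 between the rescaled and the deposited scale, away from the floor. Scaling moves all names of a library alike, so the distance of miR-193b-3p from miR-193b-5p and miR-365a-3p is fixed across scalings by construction, apart from the pseudocount.

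**Figure D5:**
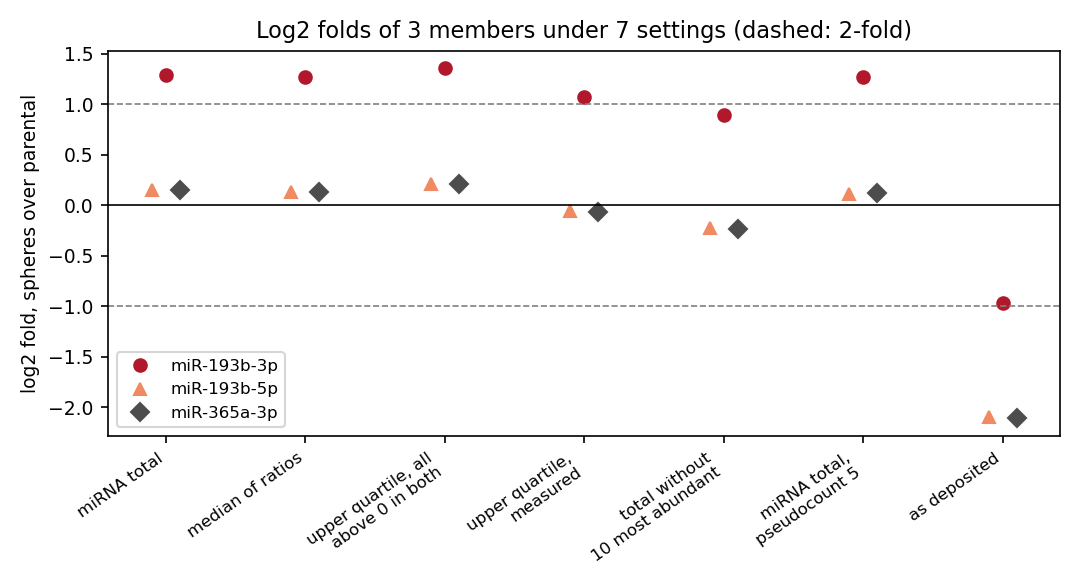
Log2 fold of spheres over parental cells for the 3 measured members under 7 settings of scale or pseudocount, with dashed lines at 2-fold. miR-193b-3p ranges from 1.36 (upper quartile) to -0.97 (as deposited), and the distance to the other 2 members is fixed by construction, apart from the pseudocount.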

How the data were processed

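Per the labels' protocols, 1 µg of total RNA entered each TruSeq Small RNA library, with a size selection step. The submitters' processing notes name the hg19 build. Aligner, counter, annotation release and the handling of reads that match several places were not given in the sources used here. The deposited values are the authors' RPKM, per the file headers, without raw counts, so no count model was used.

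The members and lists were chosen with earlier results of these data known. Each column was rescaled to 1000000, and log2 folds are those of (rescaled RPKM + 0.5), of spheres over parental cells, a scale that shrinks the changes of low miRNAs. Reads were estimated as RPKM times mature length (RefSeq, or 22 nt without a match) over the commonest value, 8.07 RPKM in spheres and 5.84 in parental cells, taken as 1 read on 22 nt. Between 0.9 and 5.1 reads, 64.6% of 189 values in spheres and 61.7% of 248 in parental cells were whole within a relative tolerance of 0.001. Another 143 and 148 values lay below 0.9 reads, so fractions of reads occur. Fold and share intervals are exact (Clopper-Pearson), those of single levels exact Poisson, and those of differences between log2 folds normal approximations.

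Names were given by this rule: the members, the other arms of their hairpins, up to 4 of each list, and the 2 nearest miRNAs in level. miR-199a-3p, miR-199b-3p and the marker miRNAs named singly lie outside it. The steps were tested on simulated data. Scaling, pseudocount, filter and interval were varied. Python 3.11.15, pandas 2.3.3 and SciPy 1.17.1 were used.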

Additional observations from a re-analysis of the deposited data

How the results depend on the processing

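The direction of the miR-193b-3p difference depends on the scale: its log2 fold of 1.29 reversed to -0.97 as deposited, by construction, because miRNAs are a different part of the reads in each library. As deposited, 0 members were higher and 2 lower, in place of 1 and 0. Without the 10 most abundant miRNAs in the total, 0 members were higher, with miR-193b-3p at 0.90, and the members' summed share was 0.18% in spheres and 0.10% in parental cells, in place of 0.053% and 0.023%. With no filter 3 of 5 members were higher, both arms of miR-193a being added on 2 sphere reads each, beside 9.47% of all 2038 names. That background is unlike the members: only 672 names were above 0 in spheres and 903 in parental cells, but all 5 members were in both. The median of ratios, both upper quartiles (the one over measured miRNAs chosen after seeing the data), a pseudocount of 5, a filter at 100 and the demand that the whole interval pass 2-fold kept 1 member higher and 0 lower. With a pseudocount of 5 the differences were 1.15 (miR-193b-3p over miR-365a-3p), 0.90 (over miR-193a-3p) and 1.16 (arms of miR-193b), in place of 1.14, 0.19 and 1.14. Depth limits miR-193a and the 5p arms most. No paired analysis was possible because each group has only 1 library, and no replicate could be left out.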
